A study of Mus musculus with 2 samples.

Results

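The serpin protease inhibitor family was described in livers of Yap+/+ and Yap+/- mice. Members were all probe sets of the array that carried exactly 1 gene symbol of the form Serpin, a clade letter from a to i and a number, except Serpina7, and of several probe sets the one brightest on average stood for its gene. This gave 38 serpin genes, read by 52 probe sets, out of 18193 genes in all. Of 64 symbols of this form in a RefSeq mouse gene table, 25 had no probe set with a single symbol under this naming and were not analysed here. Serpina7, which the rule leaves out, read 8.34 in Yap+/+ and 9.59 in Yap+/- on the log2 scale and enters none of the counts below.

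Both groups were untreated mice on a C57BL/6 background on postnatal day 30, with both Yap alleles intact (Yap+/+) or 1 of them disrupted (Yap+/-). Each genotype is 1 pool of livers of 5 mice, hybridised to 1 array, so each value is a single measurement, no difference was tested, and no p-value or error of a difference can be given. The labels do not state the sex of the mice. The value of a probe set (several short probes for one transcript) is a log2 value made by the authors with RMA, a normalisation that sets both arrays on a common scale, and a log2 difference below is always Yap+/- minus Yap+/+. Probe sets differ in how brightly they bind, so a gene is compared between the arrays, and a summed level or the order of brightness of probe sets is no measure of relative transcript amount. On its brighter probe set Yap1 itself read 9.40 in Yap+/+ and 9.24 in Yap+/-, and on the other 6.01 and 5.77. Hepatocyte markers matched the labelled tissue, with all 8 of 8 measured. The log2 excess of 3-prime over 5-prime control signal was larger on the Yap+/- array (pyruvate carboxylase by 0.21, Gapdh by 0.22, beta-actin by 0.20), and its part in the differences below was not tested. In whole liver, fewer cells of a type and less RNA per cell cannot be told apart.

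Serpins are proteins of one fold that trap proteases. An inhibitory serpin offers an exposed reactive loop as bait, the protease cuts it, and the loop snaps into the body of the serpin and drags the bound protease into a dead complex. Hepatocytes secrete most serpins of plasma, which hold back neutrophil proteases, clotting, fibrinolysis and complement, while clade B serpins stay inside cells and guard against stray proteases. A few members have lost the inhibitory function and serve as hormone carriers or chaperones.

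The family of plasma inhibitors includes a tandem row of near copies of the alpha-1-antitrypsin gene, Serpina1a to Serpina1e, beside a diverged relative, Serpina1f. Only stretches upstream of these genes were compared, and not their transcripts, which the array reads. The upstream stretches of 3 of the genes are shown to make visible how alike they are there. Each is the 100 bases before the annotated start in RefSeq (build GRCm38.p6), 5′ to 3′ on the minus strand, and capitals mark the letters GTTAAT, one arm of the motif of HNF1, a hepatocyte transcription factor. Serpina1b lies at chr12:103738190-103738289, Serpina1c at chr12:103904951-103905050 and Serpina1f at chr12:103695530-103695629.
Serpina1b: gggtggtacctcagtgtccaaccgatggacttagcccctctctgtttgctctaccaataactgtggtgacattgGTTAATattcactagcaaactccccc
Serpina1c: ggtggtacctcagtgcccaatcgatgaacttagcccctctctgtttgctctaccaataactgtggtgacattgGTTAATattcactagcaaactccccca
Serpina1f: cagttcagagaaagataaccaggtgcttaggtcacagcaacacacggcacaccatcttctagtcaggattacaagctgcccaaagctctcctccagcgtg
Over the 250 bases before the start, Serpina1b and Serpina1c were 90.9% identical in a pairwise alignment. The 10 pairs among Serpina1a to Serpina1e ranged from 58.0% to 91.0%, and the 5 pairs with Serpina1f from 36.9% to 43.1%. The same 250 bases were searched on both strands in the 38 windows of the 33 members with an entry. GTTAAT was found in 4 windows (10.5%), those of Serpina1b, Serpina1c, Serpinb8 and Serpini2, against 6.43% of all 32851 promoter windows, and the first 2 are near copies. The letters TTCNNNGAA, a STAT motif, were found in 7 windows (18.4%) against 7.02% of all windows. Of the 7, 2 are overlapping windows of Serpina11 that hold the same match, so 6 genes had one. These were Serpina11, Serpinb6a, Serpina1f, Serpina3i, Serpinb2 and Serpinb9c. The full HNF1 motif (GTTAAT, any base, ATTAAC), which contains the arm, and a heat shock element (TTC, GAA and TTC, each 2 bases apart) were in none of the 33, and in 0.00913% and 0.466% of all windows. These matches are letters in a window and not shown binding sites.

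A gene was called measured where its mean over both arrays was at least 6, which held for 9299 genes and for 17 of the 38 serpins. Of the 17, 11 had a log2 difference under 0.1 in size (64.7%, beside 50.6% of all measured genes). At a threshold of 1.5-fold, 0 of 17 serpins were higher in Yap+/-, against 0.699% of all measured genes, and 1 was lower, against 0.645%. That one was Serpinb1a, and 1 gene of 17 is too few to set against a share. At 2-fold, 0 were higher and 0 lower, against 0.0968% and 0.226% of all measured genes. The median log2 difference of the 17 serpins was 0.020, beside 0.00 over all measured genes. Of the 17, 10 were higher and 7 lower, beside 48.8% higher and 49.6% lower of all measured genes.

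**Figure D1:**
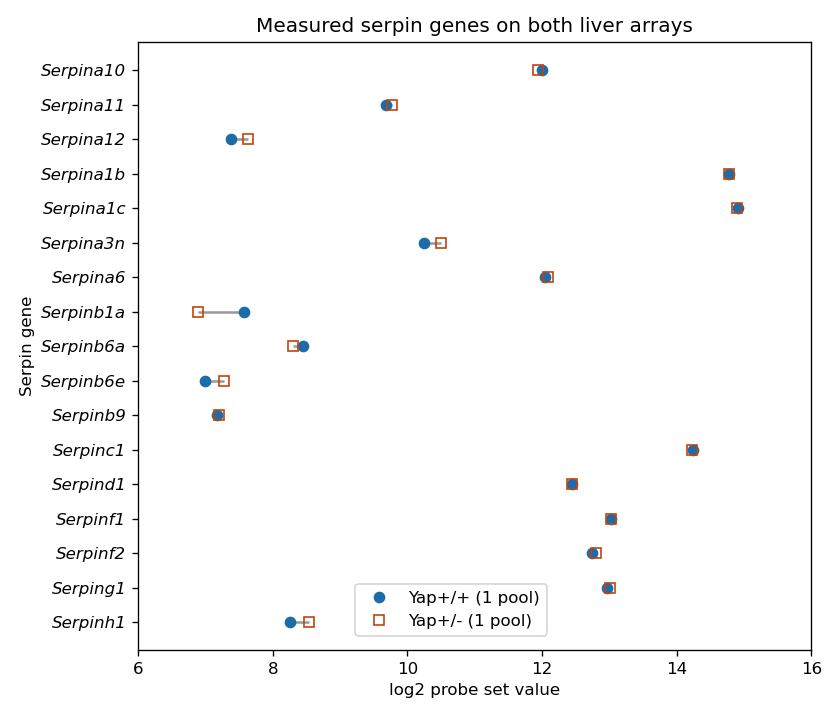
Log2 value (x axis) of the 17 measured serpin genes (y axis), with 1 filled circle for the Yap+/+ pool and 1 open square for the Yap+/- pool, joined by a line; there are no error bars because there are no replicates. The pair of symbols overlaps for most genes, and the longest line belongs to Serpinb1a, from 7.58 to 6.89.

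The secreted inhibitors of neutrophil proteases came first by role. Alpha-1-antitrypsin, the plasma inhibitor of neutrophil elastase, was read by probe sets of Serpina1b and Serpina1c. Serpina1b read 14.8 in both pools, with a log2 difference of -0.0023, and its other probe set, at 14.6 and 14.7, gave 0.019. Serpina1c read 14.9 in both pools, with a difference of -0.024. These values lie close to the top of the scale, which ends at 15.2, and probes for one copy can bind transcripts of the others, so the copies are not separated with certainty. Serpina3n, a mouse relative of antichymotrypsin and a gene of the acute-phase response, read 10.2 in Yap+/+ and 10.5 in Yap+/-, 1.20-fold higher. Of all measured genes, 562 had a more positive difference than Serpina3n.

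The 3 measured serpins that restrain clotting differed by less than 0.1 between the pools. Serpinc1 encodes antithrombin, the heparin-dependent inhibitor of thrombin and factor Xa, and read 14.2 in both pools with a log2 difference of -0.018. Serpind1, heparin cofactor II, which inhibits thrombin, read 12.4 in Yap+/+ and 12.5 in Yap+/-, a difference of 0.011. Serpina10, the inhibitor of factor Xa that works with protein Z, read 12.0 and 11.9, a difference of -0.059. Serpina5, the protein C inhibitor, lay under the measured range, at 3.50 in Yap+/+ and 3.79 in Yap+/-. Mouse liver is known to express Serpina5 poorly, unlike human liver.

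One measured member each acts on fibrinolysis and on complement. Serpinf2, alpha-2-antiplasmin, which stops plasmin, read 12.7 in Yap+/+ and 12.8 in Yap+/-, a log2 difference of 0.065. Serping1, the C1 inhibitor of complement and of the contact proteases, read 13.0 in both pools, a difference of 0.043. In all, 9 serpins were above 11 on both arrays, and their differences ran from -0.059 to 0.065. A difference under 0.1 was common at this brightness, at 64.1% of the 905 genes above 11 on both arrays.

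Among the secreted members with no protease to inhibit, Serpina6, the corticosteroid-binding globulin, read 12.0 in Yap+/+ and 12.1 in Yap+/-, a log2 difference of 0.045. Serpina7, the thyroxine carrier that the rule leaves out, was 2.37-fold higher in Yap+/- by the same measure. Serpinf1, which encodes the anti-angiogenic factor PEDF, read 13.0 in both pools on the probe set that stands for it, a difference of -0.0030. Its other probe set, also well within the measured range, gave 11.6 in Yap+/+ and 11.2 in Yap+/-, a difference of -0.49 or 1.40-fold lower. The probe sets of Serpinf1 thus disagreed by 0.49, and 84 of the 3406 genes with at least 2 measured probe sets (2.47%) disagreed by that much or more between their 2 brightest. The robust SD of such disagreement was 0.17.

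Serpina12, or vaspin, an inhibitor of a tissue kallikrein known as an adipokine, read 7.38 in Yap+/+ and 7.63 in Yap+/-, 1.19-fold higher. Its second probe set, far under the minimum at 3.22 and 3.39, differed by 0.17 on the log2 scale. Serpina11, the remaining measured clade A gene, read 9.68 and 9.76. The 12 clade A members all lie on chromosome 12, and the 7 measured ones ranged from -0.059 to 0.26, with 4 higher and 3 lower.

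Serpinh1, or HSP47, is the collagen chaperone of the endoplasmic reticulum and the only member of clade H. It read 8.25 in Yap+/+ and 8.54 in Yap+/-, 1.22-fold higher. Its second probe set, at 7.14 and 7.45, gave 1.24-fold in the same direction. Both Serpinh1 probe sets carry a suffix for probes that match more than one transcript, so Serpinh1 has no value where such probe sets are left out. Serpinh1 was the only serpin with a difference of at least 0.2 that had a second measured probe set. Such a difference, 0.2 or more in the positive direction, was seen in 4 of 17 serpins (23.5%), namely Serpinh1, Serpinb6e, Serpina3n and Serpina12, and in 10.3% of all measured genes. None of the 3 motifs above, nor the arm, was found upstream of these 4 genes. Each was in at most 7.02% of all windows, so its absence from 4 genes says little.

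With Serpina7 left out by the rule, the largest difference in size was in the intracellular clade B. Serpinb1a, the mouse leukocyte elastase inhibitor, which in neutrophils and other cells guards against elastase, cathepsin G and proteinase-3, read 7.58 in Yap+/+ and 6.89 in Yap+/-. This is a log2 difference of -0.68, or 1.61-fold lower, and 36 of the 9299 measured genes had a more negative one. Its second probe set was near background, at 4.09 and 3.90, and differed in the same direction by -0.19. The 1.5-fold call was lost where all probe sets of a gene were averaged, with a difference of -0.44, and where 64 was added on the linear scale, with -0.48.

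Markers of several cell types were set beside Serpinb1a, with no claim as to which of them carry it. Of 8 measured hepatocyte markers 5 were higher, 2 lower and 1 equal, with a summed level of 17.3 in both pools. Of 6 neutrophil markers 1 was measured, S100a9, at 5.58 in Yap+/+ and 7.02 in Yap+/-, 2.70-fold higher. It reached a mean of 6 through the Yap+/- array alone. The summed level of the 6 neutrophil markers (log2 of the sum of linear values over the list) was 7.25 in Yap+/+ and 8.18 in Yap+/-. Without S100a8 and S100a9 the level was 6.39 and 6.62, and Mpo was lower by a difference of -0.10. Macrophage markers went the other way, with 9 of 9 higher and a summed level of 13.0 and 13.4. Smooth muscle markers went the same way, with 3 of 3 measured lower, Acta2 at 2.19-fold, and a summed level of 9.79 and 8.84. Among these, Myh11 passed 6 on the Yap+/+ array alone, at 6.46 and 5.89. Of 5 biliary markers 0 were measured, and their summed level was 7.85 and 7.28, and 6.97 and 6.99 without Krt19, which read 6.73 and 4.83. Sox9 was higher by 0.26. The part of any of these cells in the Serpinb1a value was not tested.

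The other measured clade B genes differed less. Serpinb6a, an intracellular inhibitor of trypsin-like proteases and cathepsin G, read 8.46 in Yap+/+ and 8.30 in Yap+/-, a log2 difference of -0.16. Its relative Serpinb6e read 6.99 and 7.27, which is 1.22-fold higher, on a probe set whose suffix marks probes shared with other transcripts. Serpinb9, which protects cytotoxic lymphocytes and other cells from granzyme B, read 7.17 and 7.19, a difference of 0.020. These 4 measured genes lie on chromosome 13, where 11 members sit, and 2 were higher and 2 lower. Lymphocyte markers were mostly under the minimum, with 1 of 7 measured and a summed level of 7.88 in Yap+/+ and 8.07 in Yap+/-. The measured one, Gzma, read 5.96 and 6.39 and so passed 6 on the Yap+/- array alone. Of those under the minimum all were higher except Cd3g, with a difference of -0.16.

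**Figure D2:**
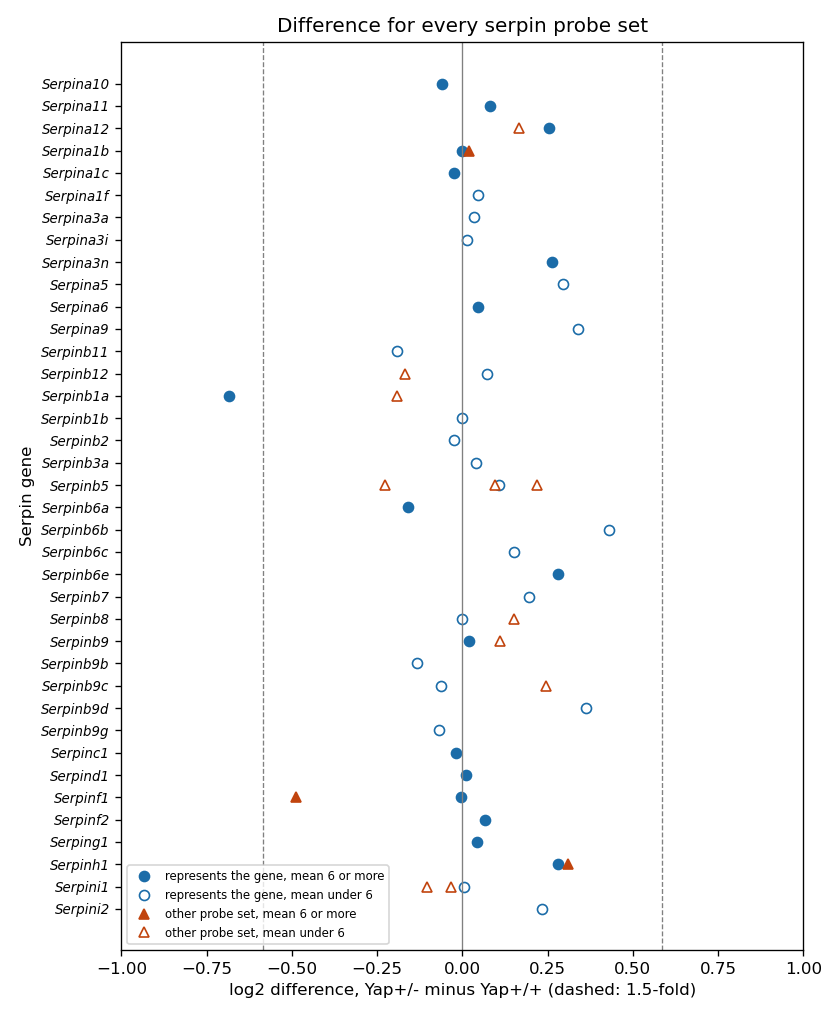
Log2 difference (x axis, Yap+/- minus Yap+/+) of all 52 serpin probe sets by gene (y axis), with circles for the probe set that stands for a gene, triangles for its other probe sets, and open symbols for means under 6. Dashed lines mark 1.5-fold, past which only the brighter Serpinb1a probe set lies, and the 2 filled symbols of Serpinf1 lie apart, at -0.0030 and -0.49.

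The 21 members under the minimum lay between 2.71 and 5.64 on either array, where a signal above background was not shown and a fold is not exact. Their median log2 difference was 0.041, beside 0.00 over the 8894 genes under the minimum, of which 45.9% were higher. Among the 21 serpins, 14 were higher, 5 lower and 2 equal, and 0 were past 1.5-fold. In clade A these were Serpina1f, Serpina3a, Serpina3i, Serpina5 and Serpina9, with differences from 0.014 to 0.34. The 2 clade I members were Serpini1, the neuroserpin gene, and Serpini2, with differences of 0.0053 and 0.23. The 14 clade B members were Serpinb1b, Serpinb2, Serpinb3a, Serpinb5, Serpinb6b, Serpinb6c, Serpinb7, Serpinb8, Serpinb9b, Serpinb9c, Serpinb9d, Serpinb9g, Serpinb11 and Serpinb12, and their differences ran from -0.19 to 0.43. The brightest probe sets among them were those of Serpinb8, at 5.60 in both pools, Serpinb6b, at 5.21 in Yap+/+ and 5.64 in Yap+/-, and Serpinb9b, at 5.29 and 5.16. Serpinb2, the inhibitor of plasminogen activators found in macrophages, read 3.34 and 3.31, and Serpinb5, the epithelial maspin gene, read 4.65 and 4.76.

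Of the 14 further probe sets, which belong to 11 genes, 3 were measured. They were those of Serpina1b, Serpinf1 and Serpinh1 described above.

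**Figure D3:**
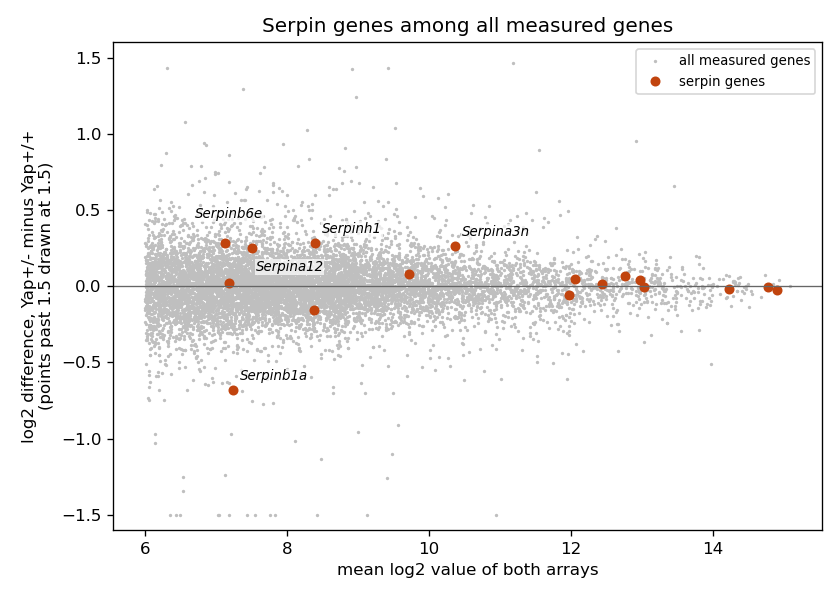
Log2 difference (y axis, Yap+/- minus Yap+/+, with points past 1.5 drawn at 1.5) against the mean log2 value of both arrays (x axis), with small grey points for the 9299 measured genes and large points for the 17 serpins. Serpins above a mean of 11 lie close to 0, and Serpinb1a, at -0.68, lies below most genes of similar brightness.

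Genes related to the serpins were compared from lists of 123 genes, of which 89 were measured. The lists hold target proteases, other protease inhibitors, cofactors and clearance receptors, collagen genes, regulators and genes of endoplasmic reticulum quality control. Of the 89, 1 (1.12%) was at least 1.5-fold higher, near the 0.699% of all measured genes, and 0 were 1.5-fold lower, against 0.645%. That one was P4ha1 of the collagen list and not a protease. The median log2 difference of the 89 was 0.047 beside 0.00 over all measured genes, of which 48.8% were higher and 49.6% lower. All 8 clotting and contact proteases were measured, with 5 higher, 3 lower and a median of 0.015. The largest were Klkb1, plasma prekallikrein, at 12.1 in Yap+/+ and 12.2 in Yap+/-, and F10, factor X, at 12.4 and 12.3. Of the fibrinolysis genes 2 of 5 were measured, both lower. Plg, plasminogen, differed by -0.023 and its receptor gene Plgrkt by -0.046, while the activators Plat and Plau were under the minimum.

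The complement proteases held by the C1 inhibitor split, with 2 of 4 measured genes higher and 2 lower. C1ra differed by 0.14 and C1s1 by 0.11, and the lectin pathway protease Masp1 by -0.069. Of 6 neutrophil and mast cell proteases 0 were measured, and Elane, neutrophil elastase, a target of Serpina1 and Serpinb1a, read 4.64 in Yap+/+ and 4.90 in Yap+/-. Of the granzymes and cathepsins 5 of 10 were measured, with 3 higher, 2 lower and a median of 0.11. Gzma, granzyme A, read 5.96 and 6.39, which is 1.34-fold higher, and reached a mean of 6 through the Yap+/- array alone. Ctss, cathepsin S of macrophages, was 1.14-fold higher. Of the membrane and HGF-activating proteases 5 of 7 were measured and 4 were higher, the exception being Tmprss2, at 6.27 and 6.00. Tmprss6, matriptase-2, which cuts hemojuvelin in the control of hepcidin, differed by 0.10.

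In the list of other protease inhibitors, differences ran from -0.25 to 0.15, beside -0.68 to 0.28 for the measured serpins. Of 18 measured, 4 were lower and 14 higher, 0 past 1.5-fold, with a median of 0.054. The largest were Timp2, an inhibitor of matrix metalloproteases, at 1.19-fold lower, and Spint2, an inhibitor of hepsin and other membrane proteases, at 1.14-fold lower. Agt, angiotensinogen, counted among the 18 but a serpin by its fold though not by its symbol, read 12.2 in Yap+/+ and 12.3 in Yap+/-. Serpin cofactors and clearance receptors had 2 of 6 measured higher and a median of -0.037, led by the thrombomodulin gene Thbd at 1.11-fold higher and the sorting receptor Sort1 at 1.08-fold lower. Proz, protein Z, the cofactor of Serpina10, differed by -0.061, close to the -0.059 of Serpina10 itself.

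Collagens and the other collagen-processing genes that work with Serpinh1 had 11 of 14 measured higher and a median of 0.11. P4ha1, a subunit of prolyl hydroxylase, read 6.30 in Yap+/+ and 6.91 in Yap+/-, 1.52-fold higher, and was the only one past 1.5-fold. Ppib, the cyclophilin that folds procollagen in the same compartment, was 1.23-fold higher, Col6a3 1.22-fold higher, and P4ha2 1.19-fold lower. P4ha2 passed 6 on the Yap+/+ array alone, at 6.19 and 5.94. The main fibril collagens differed little, with Col1a1 at 0.026, Col1a2 at -0.079 and Col3a1 at 0.059. Stellate cell and fibroblast markers had 4 of 7 higher and 3 lower, with a summed level of 13.0 in Yap+/+ and 12.9 in Yap+/-. Sinusoidal endothelial markers had 5 of 6 measured higher and a summed level of 12.0 and 12.3, and platelet markers 2 of 2 measured higher and 8.44 and 8.61. Under the minimum, the endothelial marker Pecam1 and the platelet marker Gp9 were lower, with differences of -0.19 and -0.29, and the platelet markers Ppbp and Gp1bb were higher. The part of these cells in the Serpinh1 value was not tested.

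Factors known to control serpin genes in hepatocytes, and genes that dispose of misfolded antitrypsin, completed the lists. Of 16 measured regulators 9 were higher, 6 lower and 1 equal, with a median of 0.032. Foxa3 was 1.39-fold higher and Cebpb, a factor of the acute-phase response, 1.31-fold higher, whereas the clock gene Arntl was 1.21-fold lower and Stat3, the other main factor of the acute-phase response, 1.09-fold lower, and Nr3c1, the glucocorticoid receptor, was equal at 9.71. Of the 11 measured genes of endoplasmic reticulum quality control 4 were lower and 7 higher, and the median was 0.037. Syvn1, the ubiquitin ligase of this pathway, was 1.31-fold higher, and the chaperone genes Hspa5 and Calr differed by 0.14 and 0.13.

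**Figure D4:**
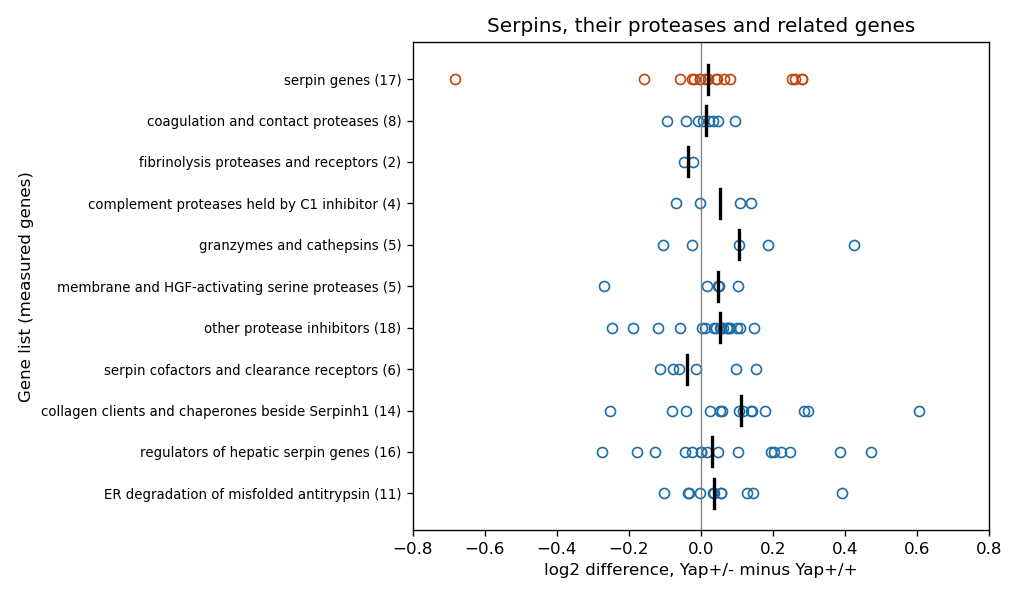
Log2 difference (x axis, Yap+/- minus Yap+/+) of the measured serpins and of the measured genes of each related list (y axis, number of genes in brackets), with 1 circle per gene and a bar at the median. The serpins lie between -0.68 and 0.28 with a median of 0.020, and the collagen list has the gene farthest to the right, P4ha1 at 0.61.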

How the data were processed

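The values used, as deposited by the authors, are on the log2 scale, for 1 pooled liver sample per genotype. Per the submitters' processing notes, the authors used RMA and Partek 6.5; no settings are stated there. Array precision is limited by their number, 2. Names came from the platform annotation: 34945 had 1 symbol, 932 several and 9160 none, besides 64 array controls, and the RefSeq table (GRCm38.p6) changed 0 symbols and matched all 38 members. The difference Yap+/- minus Yap+/+ was counted at 1.5-fold and 2-fold among genes with a mean of at least 6, and no test was possible. By the rule for names, values are given for all measured members, the 3 brightest probe sets under the minimum and, from each list, genes past 1.5-fold or the 2 largest differences. Other members are named for completeness, and further genes (among them Serpina5, Serpinb2, Serpinb5 and Stat3) were chosen after their values were seen. The members and lists were chosen with earlier results of these data known. Counting was tested on simulated data. Alternatives are given in the closing section. The work used pandas 2.3.3, numpy 2.4.6, matplotlib 3.10.9 and statsmodels 0.14.6 in Python 3.11.15.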

Additional observations from a re-analysis of the deposited data

Results flagged for a closer look

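Serpin probe sets with several symbols lie outside the comparison of single genes, and 2 of the 3 were measured and were brighter in Yap+/- than on the control array. The probe set shared by Serpina1d and Serpina1a read 14.3 in Yap+/+ and 14.4 in Yap+/-, a log2 difference of 0.075. The one shared by Serpina1e, Serpina1c and Serpina1b read 11.9 and 12.1, a difference of 0.20, whereas the probe sets with Serpina1b or Serpina1c alone gave -0.0023, 0.019 and -0.024.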

How the results depend on the processing

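The counts at 1.5-fold and 2-fold and the median of the serpins were recomputed without a filter, with a minimum of 7, with all probe sets averaged per gene, with only probe sets that have no suffix for shared targets, after median centring, removal of a lowess trend or quantile normalization, and with 64 added on the linear scale. The count of serpins at least 1.5-fold lower was 0 instead of 1 with the mean of all probe sets, which put Serpinb1a under the minimum, and 0 with 64 added. The median stayed positive, between 0.014 and 0.043, also without Serpinb1a. Serpinf1 gave -0.25 with the mean of its probe sets. Differences of Serpina1b and Serpinf1 near 0 turned to 0.012 and 0.011 under median centring. Median centring raised the difference of every measured gene by 0.014, so the serpin median of 0.034 under it includes that shift. No paired analysis was possible because each genotype has 1 sample. With 1 pool each, spread between mice was not measurable.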

Other observations

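Outside the rule, the pseudogene Serpina4-ps1 had 3 probe sets, all under the minimum, with log2 differences of 0.30, 0.16 and 0.00. The probe set shared by Serpinb9h, Serpinb9g, Serpinb9e and Serpinb9f read 3.73 in Yap+/+ and 3.64 in Yap+/-.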
